A study of Mus musculus with 9 samples.

Results

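The cytosolic ribosomal protein genes were the symbols built from Rpl or Rps, a number of up to 2 digits and up to 1 closing letter (a, l, x or y), together with Rplp0, Rplp1, Rplp2 and Rpsa. Pseudogene rows ending in -ps and the Rps6k kinases, which share the Rps prefix but are signalling enzymes, were not members. The symbol rule itself used no measured value, although the members were chosen with earlier results of these data known. It found 83 genes among 40879 symbols, of which 51 code for proteins of the large subunit and 32 for proteins of the small subunit. All 83 had at least 1 read in some library, and 79 of them (48 large, 31 small) passed the filter on low counts and were tested together with all 11980 genes that passed. Rps4l, Rpl6l, Rpl10l and Rpl39l did not pass and are described by their counts.

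The genes were measured in engineered muscle made of C2C12 cells, a mouse myoblast line labelled wild type, held in matrix prepared from muscle tissue. Irradiated constructs had been given X-rays once, at 20 Gy, the study's way of inducing senescence, a lasting stop of cell division with continued secretion. Cocultured constructs had themselves not been irradiated but had shared a dish with an irradiated construct, and only the unirradiated partner was collected. Normal constructs had been neither irradiated nor cocultured. All groups had spent 2 days in growth medium and 10 days in differentiation medium with 10% equine serum, and the labels do not place the irradiation within these days. Each group had 3 libraries, which the titles call biological replicates, whereas the design text counts 2 irradiated and 2 normal constructs and has dishes hold a pair of constructs. Some libraries may thus come from the same dish. The p-values below set differences against the scatter of these libraries, part of which may be technical. The model is 1 immortal cell line, and the labels name no other cell type in it.

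Libraries held 4840993 to 8290468 reads assigned to genes, from the 3′ ends of polyadenylated RNA. All 10 muscle markers were counted in every group, at 4657 to 43648 CPM (reads scaled to a common library size) summed over a library, whereas the summed markers of endothelial cells, macrophages, adipocytes and Schwann cells reached at most 29.4 CPM in any library. Markers of undifferentiated myoblasts (Myod1, Myf5 and Pax7) summed to 15.4 to 91.8 CPM, and were lowest in normal 3 (15.4 CPM) and irradiated 1 (17.4 CPM). Irradiated 1 and normal 3 stood apart from the rest. Their summed muscle markers reached 35462 CPM in irradiated 1 and 43648 CPM in normal 3, against 4657 to 10787 CPM in the other 7 libraries, and mitochondrially encoded genes took 21.6% of the counts in irradiated 1 and 29.7% in normal 3, against 5.76% to 13.4% elsewhere. Not every muscle marker went that way. Acta1 and Ckm were highest in these libraries. Myh3 was lowest there, at 43.8 CPM in irradiated 1 and 54.5 CPM in normal 3, against 98.3 to 437 CPM elsewhere. Myog was at 380 CPM in irradiated 1 and at its lowest, 110 CPM, in normal 3. Gm26917, a predicted gene, took 4.76% to 12.01% of counts in irradiated, 3.38% to 3.91% in cocultured and 9.47% to 27.4% in normal libraries. Values below are therefore given as normalised CPM, scaled with TMM factors (a trimmed mean of log ratios between libraries), unless another scale is named.

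A ribosome has a small subunit, which reads the messenger RNA, and a large subunit, which joins the amino acids, and each carries its own set of proteins. Most of these proteins are needed in equal numbers, and their messenger RNAs typically begin with a run of pyrimidines, the 5′ terminal oligopyrimidine (TOP) tract, through which the growth kinase mTORC1 and the RNA-binding protein LARP1 set their translation. In muscle the number of ribosomes sets how much protein a fibre can make, and free Rpl5 and Rpl11 are known to bind Mdm2, the ubiquitin ligase that holds p53 in check.

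The start regions of the genes on which the results below turn are shown from the RefSeq promoter table of build GRCm38.p6, which held 73 starts of 61 members. Each line gives 15 bases before and 15 from the annotated start on the gene's own strand, and capitals mark the longest unbroken run of C and T in those 30 bases. Rps27l and Rps27 are a paralog pair, Rpl3l is a muscle paralog, and Rps26 and Rpl37 had the highest levels of their subunits. Rpl12, Rpl15 and Rps9 are described in the comparisons below. The windows lie at chr9:66946071-66946100 (Rps27l, plus strand, the first of 2 annotated starts), chr3:90213634-90213663 (Rps27, minus), chr17:24727811-24727840 (Rpl3l, plus, the first of 2), chr10:128626492-128626521 (Rps26, minus), chr15:5116598-5116627 (Rpl37, plus), chr2:32961697-32961726 (Rpl12, plus), chr14:18270972-18271001 (Rpl15, minus) and chr7:3704026-3704055 (Rps9, plus).
Rps27l: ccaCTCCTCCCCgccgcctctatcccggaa
Rps27: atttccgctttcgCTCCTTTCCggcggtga
Rpl3l: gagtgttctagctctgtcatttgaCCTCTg
Rps26: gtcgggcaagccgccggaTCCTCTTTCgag
Rpl37: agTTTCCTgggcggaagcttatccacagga
Rpl12: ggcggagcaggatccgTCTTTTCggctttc
Rpl15: gtgggagaaagCCTTCTTCCTTTCCTCTgg
Rps9: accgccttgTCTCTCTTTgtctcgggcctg

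The run spans the annotated start in Rps27, Rpl15 and Rps9, lies before it in Rps27l and Rpl37, and lies after it in Rpl3l, Rps26 and Rpl12. A C at the start itself followed by at least 4 more pyrimidines was found in 14 of the 73 member starts (19.2%), against 2.51% of all 32851 promoters of the table. A run of at least 8 pyrimidines between 10 bases before and 15 bases after the start was found in 23 member starts (31.5%), against 9.49% of all promoters. Within the 300-base promoters, searched on both strands, CCGGAAG, a motif of ETS factors such as GABP, was present in 26 (35.6%, against 8.86% of all promoters) and AAGATGG, the core of the YY1 motif, in 11 (15.1%, against 6.34%). TATAAA was present in 7 (9.59%, against 13.6%). The last 3 letters of CCGGAAG are the first 3 of AAGATGG, so matches to these motifs can overlap, and a match is a description of the letters only. Promoters of the 69 mitochondrial ribosomal protein genes in the table, whose products work in the other ribosome of the cell, had CCGGAAG in 34.7% and no C-initiated pyrimidine start.

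The members differed widely in level. The 3′ method gives about 1 tag per transcript, so levels of different genes were compared without dividing by length. Rps26, a protein at the mRNA exit of the small subunit, had the highest mean level, with 1131, 1098 and 1597 CPM in irradiated constructs, 1918, 1811 and 1759 CPM in cocultured and 1330, 1619 and 1388 CPM in normal constructs. All 3 cocultured libraries lay above all others. Rpl37, a zinc-binding protein and the highest of the large subunit, had 1348, 1240 and 1303 CPM in irradiated, 1400, 2036 and 1645 CPM in cocultured and 1522, 1790 and 1059 CPM in normal constructs, so that irradiated and cocultured libraries did not overlap while the normal ones spanned both. Rps14, which lies in the platform of the small subunit, had 1711, 994 and 1271 CPM in irradiated, 1191, 1752 and 1180 CPM in cocultured and 2068, 1994 and 1390 CPM in normal constructs, with all groups overlapping. With Rpl23a and Rps20 these genes were the 5 highest and together took 20.0% to 24.3% of ribosomal protein counts in irradiated, 22.2% to 23.8% in cocultured and 23.4% to 25.6% in normal libraries.

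**Figure D1:**
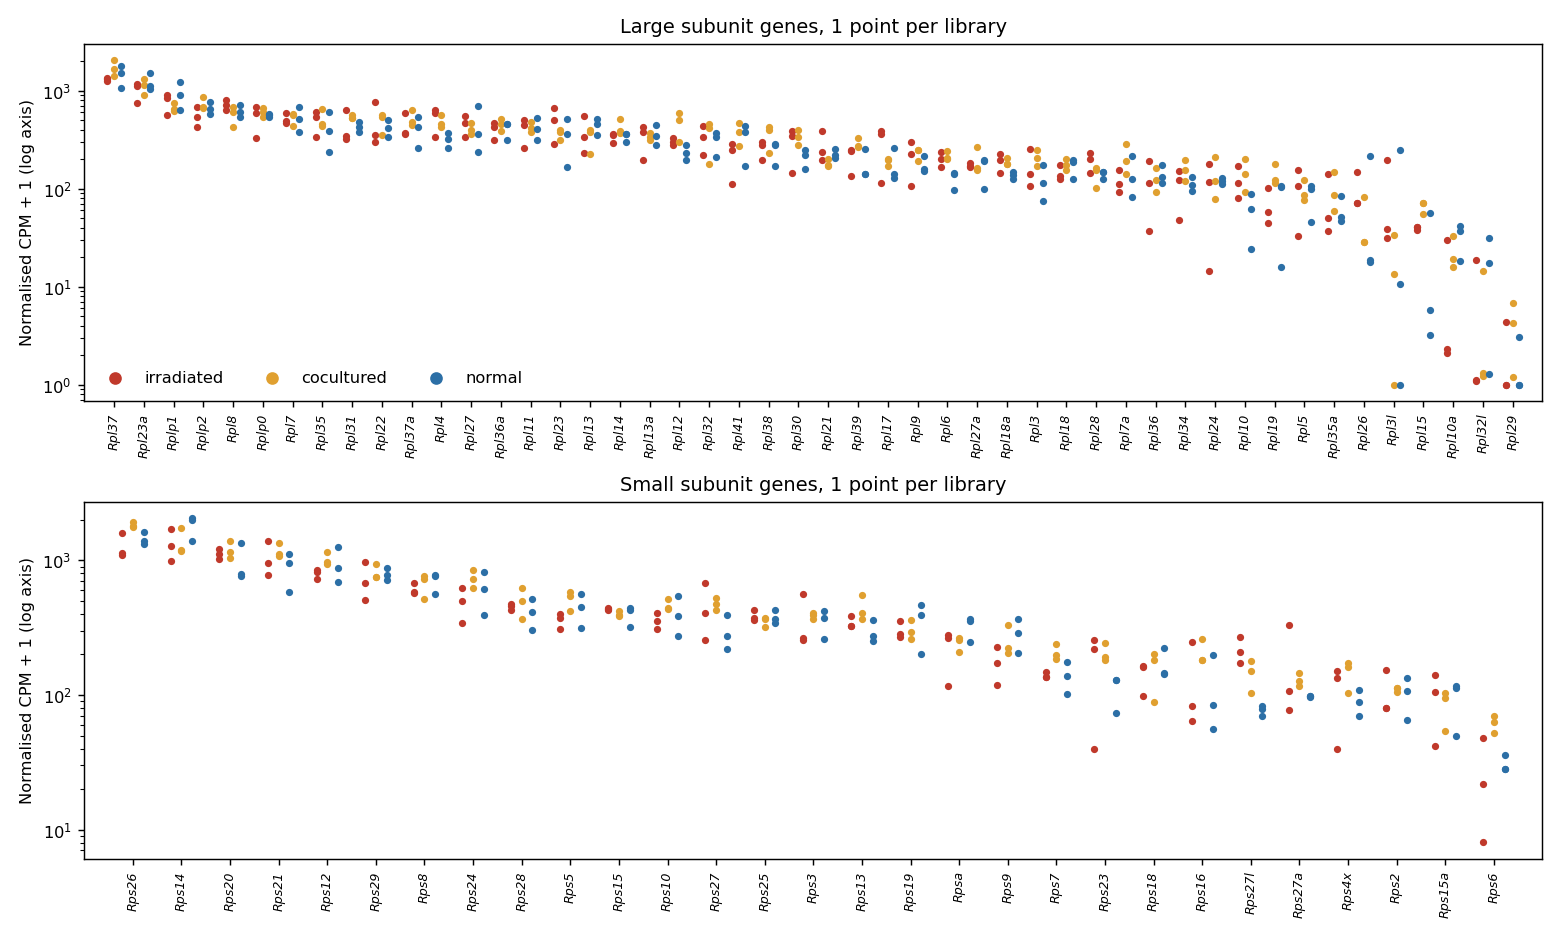
Normalised CPM plus 1 of 77 of the tested members on a log axis, large subunit above and small subunit below, ordered by mean level, with 1 point per library (red irradiated, orange cocultured, blue normal). The libraries order the members alike (Spearman 0.81 to 0.96), and among the low members Rpl29, Rpl32l and Rpl10a scatter widely.

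The order of the members was much the same in every library. Spearman correlations of member levels between libraries ran from 0.81 to 0.96 (79 genes), against 0.60 to 0.84 over all 11980 tested genes, which hold many more low values and are no independent points. Among the 74 members with a mean of at least 50 CPM the median coefficient of variation within a group was 30.2% in irradiated, 16.9% in cocultured and 25.6% in normal constructs, against 43.7%, 26.3% and 29.8% in the same groups for all 3145 genes of at least 50 CPM. Members and all genes were not matched in level beyond that floor. Rps15, a protein near the decoding site, had the lowest coefficient of variation of these 74, with 428, 445 and 436 CPM in irradiated, 390, 383 and 421 CPM in cocultured and 318, 426 and 440 CPM in normal constructs. Others had a single library far from the rest. Rpl24, for example, was at 115, 13.4 and 178 CPM in irradiated, 119, 207 and 77.8 CPM in cocultured and 109, 129 and 117 CPM in normal constructs, with irradiated 2 far below the other 8 libraries. Rpl24 and Rps15 were picked out for their spread after it was seen.

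Summed over all members, ribosomal protein messages took 1.91%, 3.39% and 3.82% of all counts in irradiated libraries, 3.67%, 4.19% and 3.40% in cocultured and 2.53%, 2.99% and 1.38% in normal libraries. The group values were 3.04 ± 1.003%, 3.75 ± 0.401% and 2.30 ± 0.830% in the same order (SD, n = 3 each). The cocultured libraries all lay above the normal ones, while irradiated libraries overlapped both groups, with irradiated 1 below normal 1 and normal 2. The widest exact 95% binomial interval of a library's share, that of normal 2, ran from 2.97% to 3.00% and covers counting error only. The lowest shares belonged to irradiated 1 and normal 3, the libraries with the highest summed muscle markers and the largest mitochondrial part. With mitochondrial genes and Gm26917 left out of the total the shares were 2.88%, 4.02% and 4.70% in irradiated, 4.38%, 4.89% and 4.04% in cocultured and 3.601%, 4.55% and 2.27% in normal libraries, and cocultured and normal libraries overlapped. Relative to TMM-scaled library sizes the means were 2.79 ± 0.251%, 3.14 ± 0.306% and 2.80 ± 0.426%, so the difference of irradiated and normal constructs was -0.0174 percentage points on that scale and 0.739 on the other. In bulk RNA, fewer cells and less RNA per cell cannot be told apart. No p-value is given for sums over members, since the members were chosen with earlier results of these data known.

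The ratio of summed subunit counts was lower in the irradiated constructs than in the others. Small-subunit counts divided by large-subunit counts, a ratio within each library that needs no scaling between libraries, came to 0.867, 0.831 and 0.890 in irradiated, 0.911, 0.914 and 0.976 in cocultured and 0.939, 0.916 and 0.914 in normal libraries. Every irradiated library lay below all 6 others, and cocultured and normal libraries overlapped. The mean log2 ratio of irradiated constructs differed by -0.10 from that of normal ones and by -0.11 from that of cocultured ones. Rps26 alone, the highest member, took 4.29%, 4.15% and 5.19% of ribosomal protein counts in irradiated, 6.26%, 5.20% and 6.10% in cocultured and 5.07%, 4.92% and 5.57% in normal libraries. These shares, like the CPM, were lower in all irradiated than in all cocultured libraries, by a margin of 5.19% against 5.20% at the nearest pair, and overlapped between irradiated and normal libraries. Rps14 took 6.49%, 3.76% and 4.13% in irradiated, 3.89%, 5.03% and 4.09% in cocultured and 7.88%, 6.06% and 5.58% in normal libraries. The highest members weigh most in these sums. Over single members, median log2 fold changes of the large and small subunit were 0.09 and 0.03 for irradiated against normal constructs. For irradiated against cocultured they were -0.16 and -0.17. The part of single members in the ratio was not tested.

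**Figure D2:**
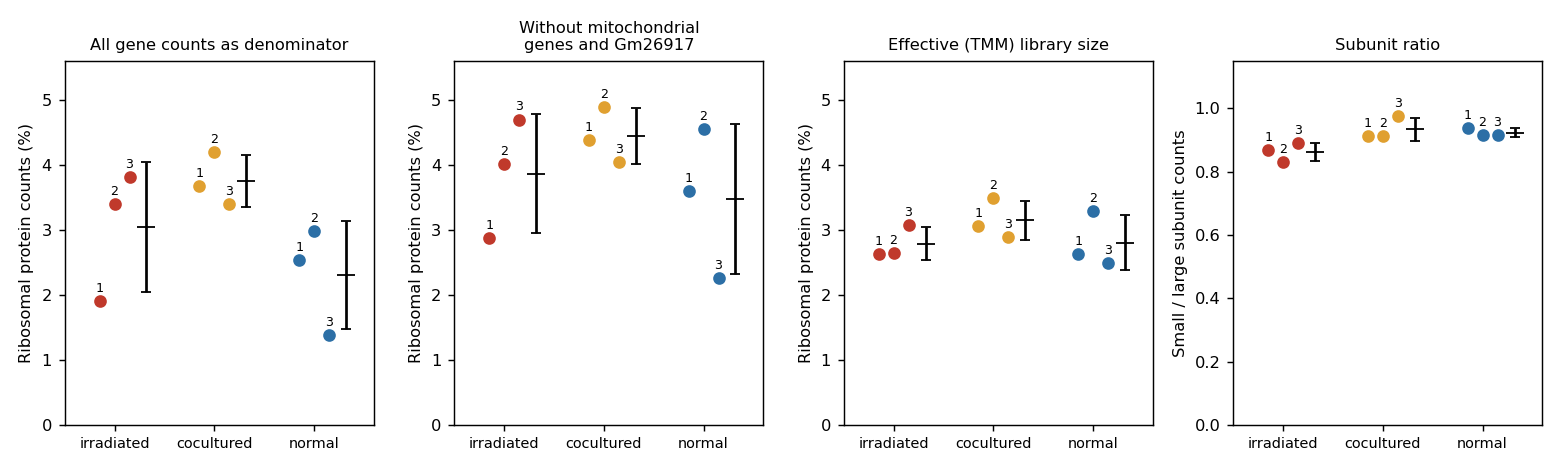
Ribosomal protein counts of each library as a percentage of all counts, of counts without mitochondrial genes and Gm26917, and of the TMM-scaled library size, and the ratio of small to large subunit counts (points are libraries with their numbers, black bars mean and SD, n = 3). Cocultured libraries lie above normal ones only with all counts as the denominator, and in the last panel the irradiated libraries, at 0.831 to 0.890, lie below all others.

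Irradiated and normal constructs were compared first, gene by gene, in a model fitted to all 9 libraries. No member passed an adjusted p of 0.05 in the quasi-likelihood test of edgeR, with Benjamini-Hochberg adjustment over all genes, a threshold that 0.0584% of all genes passed (0.00835% higher and 0.0501% lower in irradiated constructs). At an unadjusted p under 0.05 stood 1 of 79 members, Rps27l, against 10.3% of all tested genes. DESeq2, which called 456 genes (4.14% of those it gave an adjusted p), called Rps27l and no other member, and limma voom, which called 25 genes (0.209%), called no member. The median log2 fold change of members was 0.04, with the middle 50% of them between -0.21 and 0.27, and 45 of 79 were positive, against 41.8% of all genes. Over all tested genes the median was -0.21. Members of at least 50 CPM had a median absolute log2 fold change of 0.228, against 0.416 for all genes of at least 50 CPM. Beyond that floor these sets were not matched in level. Groups did not overlap for 3 members that lay higher in irradiated constructs (Rps27l, Rpl6 and Rpl12), against 3.94% of all genes (6.3% of those of at least 50 CPM), and for 0 members lower, against 11.8% (11.4%). Without normal 3 and irradiated 1 these counts were 18 higher, against 11.8% of all genes, and 15 lower, against 33.2%, with fewer libraries to separate. Of the 3 members higher with all libraries, only Rps27l stayed apart under all 4 scalings named below.

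Among members of at least 50 CPM the highest log2 fold changes were those of Rps27l, described below, Rpl10 and Rps27a. Rpl10, which helps to shape the peptidyl transferase centre, had 79.0, 167 and 112 CPM in irradiated constructs, against 61.4, 87.7 and 23.0 CPM in normal ones (log2 1.06 ± 0.52 SE, adjusted p = 0.504 in edgeR's quasi-likelihood test). The groups overlapped by 1 library on each side. Rps27a, which is made as a fusion with ubiquitin, had 76.7, 329 and 105 CPM in irradiated constructs, against 95.5, 97.3 and 96.9 CPM in normal ones (log2 0.82 ± 0.49 SE, adjusted p = 0.676 in edgeR). Irradiated 2 alone set it apart, and without that library the log2 fold change was -0.08.

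At the other end, Rps9, a protein of the small subunit's mRNA entry region, had 224, 172 and 118 CPM in irradiated constructs, against 288, 369 and 206 CPM in normal ones (log2 -0.75 ± 0.37 SE, unadjusted p = 0.0620, adjusted p = 0.498 in edgeR). Only irradiated 1 reached into the range of the normal libraries. Rpl41, the smallest ribosomal protein, had 247, 111 and 281 CPM in irradiated constructs, against 378, 432 and 168 CPM in normal ones (log2 -0.61 ± 0.43 SE). Rpsa, which is also known as the laminin receptor precursor, had 265, 116 and 280 CPM in irradiated constructs, against 249, 364 and 355 CPM in normal ones (log2 -0.55 ± 0.37 SE). For both, the groups overlapped and irradiated 2 was the lowest of the 6 libraries.

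For cocultured against normal constructs no member passed either, although 20 members had all cocultured above all normal libraries. The count of called members was 0 of 79 in edgeR, as for all genes (0.0%), and DESeq2 (1.02% of all genes called) and limma voom (0.0%) called no member either. Unadjusted p-values under 0.05 were found for 5 of 79 members, among them Rpl12, Rps27l, Rpl10 and Rpl6, all higher in cocultured constructs, against 4.11% of all genes. The median log2 fold change was 0.22, with the middle 50% of members between -0.04 and 0.57 and 58 of 79 positive (46.9% of all genes), against a median of -0.07 over all genes. All 3 cocultured libraries lay above all 3 normal ones for 20 members (25.3%), of which 10 belonged to each subunit. That held for 5.66% of all tested genes and for 7.6% of genes of at least 50 CPM. Only Rpl21 lay lower without overlap, against 7.51% of all genes and 6.74% of those of at least 50 CPM. Members share the scaling of their libraries and are not independent of each other, and with library totals as the scale the count of higher members was 42, against 15.6% of all genes.

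Of the 20 members, 18 lay above the normal libraries under all 4 scalings tried (TMM, DESeq2 size factors, upper quartile and library totals), 9 of each subunit, which held for 5.06% of all tested genes. As a share of ribosomal protein counts, which sets aside any shift common to the members, 10 of these 18 still lay above the normal libraries, among them Rps27, Rpl30, Rpl6, Rps23, Rps27l, Rpl10, Rpl19 and Rps6, against 3.7% of all genes under the same joint rule. On that scale alone 14 of the 79 members lay higher (4.17% of all genes) and 6 lower (9.11%), the lower ones being Rps14, Rpl23a, Rplp1, Rps29, Rpl13 and Rpsa. All other genes were divided by the members' sum too, which centres the members and not the other genes. With TMM the shares of all genes were 5.66% higher and 7.51% lower. Shares of all genes on the members' scale are therefore no even measure for the members' counts. Without normal 3 and irradiated 1 the TMM count of higher members was 23, against 9.24% of all genes. The other scalings and the sets without these libraries were added after the data were seen.

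Rpl10 and Rpl12 were among the members of at least 50 CPM with the highest log2 fold changes. Rpl10 had 90.9, 139 and 201 CPM in cocultured constructs, against the normal values given above (log2 1.32 ± 0.53 SE), and no cocultured library overlapped the normal ones. Rpl12, part of the base on which the stalk stands, had 496, 588 and 299 CPM in cocultured constructs, against 196, 227 and 276 CPM in normal ones (log2 0.98 ± 0.33 SE, unadjusted p = 0.00990, adjusted p = 1.0 in edgeR). Its irradiated libraries, at 278, 323 and 296 CPM, lay above the normal ones too, with 278 against 276 CPM at the nearest pair. As a share of ribosomal protein counts, cocultured and normal libraries overlapped for Rpl12, with 1.04% in cocultured 3 and 1.11% in normal 3.

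The 3 lowest fold changes among members of that level were those of Rpl3l, described below, Rpl26 and Rplp1, and they changed sign with a library or a scale. Rpl26, which has been reported to bind p53 mRNA in human cells, had 27.9, 27.3 and 81.8 CPM in cocultured constructs, against 16.8, 17.7 and 214 CPM in normal ones (log2 -0.86 ± 0.88 SE). Without normal 3 the value was 1.39. Rplp1 had 621, 750 and 643 CPM in cocultured constructs, against 630, 892 and 1214 CPM in normal ones (log2 -0.44 ± 0.33 SE), and was positive, at 0.20, with library totals as the scale.

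**Figure D3:**
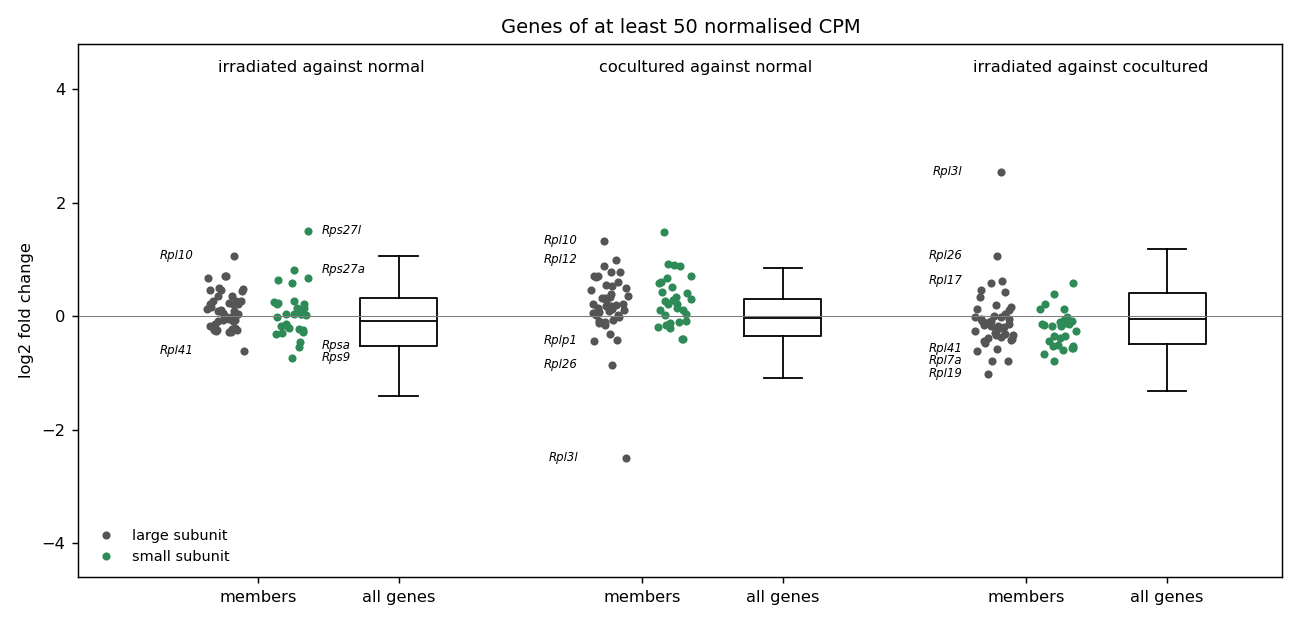
Log2 fold changes of the 74 members of at least 50 normalised CPM (grey large, green small subunit) beside all 3145 genes above the same floor, not otherwise matched in level (box: median and quartiles, whiskers 5% to 95%), in the 3 comparisons. The median absolute log2 of members and of all these genes is 0.228 and 0.416 for irradiated against normal, 0.315 and 0.329 for cocultured against normal, and 0.267 and 0.451 for irradiated against cocultured constructs.

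Irradiated and cocultured constructs were compared directly, with libraries that the comparisons above also use. No member passed in edgeR (0 of 79, against 0.0334% of all genes), in DESeq2 (4.76%) or in limma voom (0.876%), and 0 of 79 had an unadjusted p under 0.05, against 9.58% of all genes. The median log2 fold change was -0.17, with the middle 50% between -0.43 and -0.02, and 19 of 79 were positive, against 46.7% of all genes. The median over all genes was -0.10. Irradiated libraries lay below all cocultured ones for 13 members, 8 small and 5 large (10.6% of all genes, 12.7% of those of at least 50 CPM), and above them for Rps15 alone (3.9% and 6.39%). Without normal 3 and irradiated 1 the counts were 17 lower, against 19.2% of all genes, and 6 higher, against 8.07%. Under all 4 scalings 6 of the 79 members stayed below, among them Rps26, Rps12, Rps7, Rpl19 and Rpl15, a share near the 9.26% of all genes that did.

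Rpl19, a large-subunit protein that reaches across to the small subunit, had the lowest fold change among members of at least 50 CPM, with 43.9, 100 and 57.02 CPM in irradiated constructs, against 120, 177 and 113 CPM in cocultured ones (log2 -1.03 ± 0.62 SE, adjusted p = 0.633 in edgeR). The groups did not overlap, and normal libraries, at 102, 105 and 14.8 CPM, spanned the irradiated range. Rpl15, whose TOP start is the longest of those printed, had 40.0, 36.6 and 39.5 CPM in irradiated, 69.6, 70.5 and 54.7 CPM in cocultured and 4.72, 55.2 and 2.19 CPM in normal constructs. It was even among irradiated libraries, and normal 1 and normal 3 held only 23 and 8 reads of it. Rpl7a had 90.7, 110 and 152 CPM in irradiated and 191, 283 and 139 CPM in cocultured constructs (log2 -0.80 ± 0.43 SE), and Rpl41 had a log2 of -0.80 ± 0.43 SE, both with overlap.

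On the higher side Rpl26 had 145, 70.6 and 71.1 CPM in irradiated constructs, against 27.9, 27.3 and 81.8 CPM in cocultured ones (log2 1.07 ± 0.88 SE). Its highest values in the study were in irradiated 1 and normal 3, the libraries with the highest summed muscle markers. Rpl17, which lies at the exit of the peptide tunnel, had 114, 387 and 356 CPM in irradiated constructs, against 168, 193 and 200 CPM in cocultured ones (log2 0.61 ± 0.45 SE). Irradiated 1 lay below and the other irradiated libraries above all cocultured ones.

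Rps27l was the only member with an unadjusted p under 0.05 for both irradiated and cocultured against normal constructs. It is a near copy of Rps27, a zinc-finger protein of the small subunit, and is known as a target gene of p53. Rps27l had 173, 207 and 267 CPM in irradiated constructs, 151, 177 and 102 CPM in cocultured and 69.2, 81.8 and 77.4 CPM in normal constructs, from 283 to 2276 reads a library. Irradiated and cocultured libraries all lay above the normal ones, and irradiated and cocultured libraries overlapped by 1 library. In edgeR's fit across all genes the log2 fold change was 1.501 ± 0.36 SE for irradiated against normal constructs (unadjusted p = 0.00101, adjusted p = 0.165). It was 0.91 ± 0.35 SE for cocultured against normal (unadjusted p = 0.0221, adjusted p = 1.0 in edgeR) and 0.59 ± 0.35 SE for irradiated against cocultured constructs (adjusted p = 0.612 in edgeR). With DESeq2, which called 456 genes in this comparison where edgeR called 7, the first of these had an adjusted p of 0.00300. Over the libraries left out in turn its log2 fold change stayed between 1.32 and 1.64, with adjusted p between 0.0707 and 0.680 in edgeR.

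As a share of ribosomal protein counts, Rps27l took 0.655%, 0.783% and 0.868% in irradiated, 0.492%, 0.510% and 0.354% in cocultured and 0.264%, 0.249% and 0.311% in normal libraries. On this scale, which is free of library scaling, no group overlapped another, and each of the 3 comparisons had an exact two-sided permutation p of 0.1 (also 0.1 after Benjamini-Hochberg adjustment over the 3), the smallest that 3 against 3 libraries can give. The test on this share was not among those planned. Other members were apart on this scale too. With Rps27l counted, 5 lay higher and 1 lower for irradiated against normal, and 4 higher and 6 lower for irradiated against cocultured constructs. Rps27 itself had 254, 403 and 680 CPM in irradiated, 425, 521 and 472 CPM in cocultured and 273, 395 and 219 CPM in normal constructs. Its cocultured libraries lay above the normal ones and its irradiated libraries spanned both groups.

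Of the reads of the pair, Rps27l took 40.4%, 33.9% and 28.2% in irradiated libraries, 26.2%, 25.4% and 17.8% in cocultured and 20.2%, 17.2% and 26.1% in normal ones. The irradiated share, 34.2 ± 6.13%, lay above the cocultured (23.1 ± 4.63%) and normal shares (21.2 ± 4.56%; SD, n = 3 each) without overlap, and these overlapped with each other. The exact permutation p was 0.1 for both comparisons of irradiated constructs and 0.7 for cocultured against normal, or 0.48, 0.48 and 1.0 adjusted over the 24 paralog comparisons. Only 0.3% of the 75-base windows in the last 400 bases of Rps27l occur in another gene's transcripts, whereas 71.5% of those of Rps27 do. Of other p53-linked genes, Cdkn1a, the cell-cycle inhibitor p21, had 1390, 1701 and 1754 CPM in irradiated, 1225, 1207 and 1311 CPM in cocultured and 969, 1365 and 655 CPM in normal constructs (log2 0.70 ± 0.33 SE for irradiated against normal, adjusted p = 0.486 in edgeR). Mdm2 had 71.3, 77.2 and 51.7 CPM in irradiated, 75.4, 94.3 and 213 CPM in cocultured and 39.8, 88.9 and 66.2 CPM in normal constructs, with overlap of irradiated and normal libraries.

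Rpl3l scattered widely within the groups. It replaces Rpl3 in the ribosomes of adult striated muscle. Rpl3l had 193, 37.8 and 30.04 CPM in irradiated, 12.53, 0 and 32.4 CPM in cocultured and 0, 9.54 and 245 CPM in normal constructs. Its highest values belonged to irradiated 1 and normal 3, which also had the most Ckm, muscle creatine kinase, at 5256 CPM of library total in irradiated 1 and 6640 CPM in normal 3, against 167 to 1207 CPM in the other 7. The Rpl3l part of Rpl3 and Rpl3l reads was 57.9%, 26.5% and 10.6% in irradiated, 4.81%, 0% and 16.2% in cocultured and 0%, 5.21% and 76.8% in normal libraries. Rpl3 had 141, 105 and 254 CPM in irradiated, 248, 202 and 168 CPM in cocultured and 113, 174 and 73.9 CPM in normal constructs, with its lowest value in normal 3. The Rpl3l log2 fold change was 0.04 ± 1.74 SE for irradiated against normal, -2.50 ± 1.84 SE for cocultured against normal and 2.54 ± 1.84 SE for irradiated against cocultured constructs. Without normal 3 the value for cocultured against normal was 1.66. For irradiated against normal it ran from -1.32 to 4.19 as each library was left out. Apart from irradiated 1 and normal 3, the irradiated libraries (37.8 and 30.04 CPM) lay above the normal ones (0 and 9.54 CPM). The part of muscle content in these values was not tested.

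**Figure D4:**
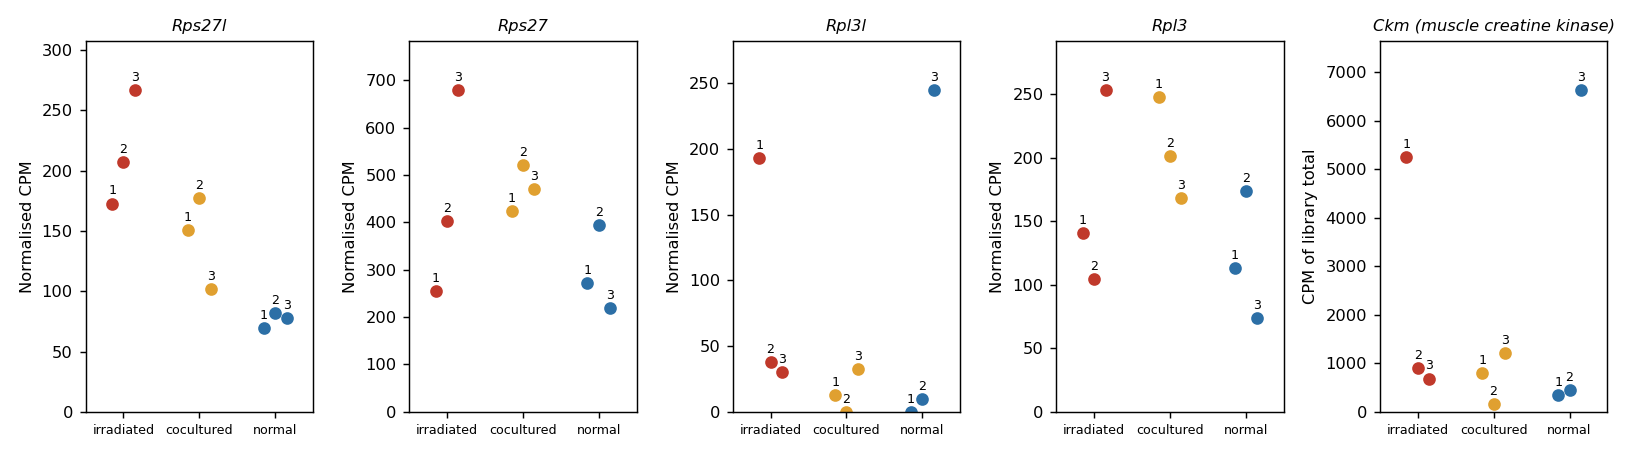
Normalised CPM of Rps27l, Rps27, Rpl3l and Rpl3 and CPM of Ckm in each library (points with library numbers). Rps27l is at 102 CPM or more in all irradiated and cocultured libraries and at 81.8 CPM or less in all normal ones, while Rpl3l and Ckm are highest in irradiated 1 and normal 3.

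The other paralogs were rare or uneven. Rps4l, a copy of Rps4x, had 379 reads in irradiated 2 and 0 in the other 8 libraries. Rps4x was at 132, 38.5 and 149 CPM in irradiated, 171, 159 and 103 CPM in cocultured and 69.2, 108 and 87.6 CPM in normal constructs, and irradiated 2 held its lowest value. Rpl10l and Rpl39l, best known from the testis, had 4 reads (all in cocultured libraries) and 2 reads in the whole study, against 84 to 1779 and 513 to 3149 reads a library for Rpl10 and Rpl39. Rpl6l had 9 reads, all in normal 2. Rpl39, at the wall of the peptide tunnel, had 134, 244 and 242 CPM in irradiated, 269, 326 and 264 CPM in cocultured and 251, 139 and 140 CPM in normal constructs, so that cocultured libraries lay above all others.

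Outside the symbol rule, Rpl22l1, the copy of Rpl22, had 92.2, 57.2 and 58.7 CPM in irradiated, 95.1, 29.4 and 82.4 CPM in cocultured and 11.9, 37.5 and 49.0 CPM in normal constructs (log2 1.08 ± 0.66 SE for irradiated against normal, adjusted p = 0.717 in edgeR). All irradiated libraries lay above the normal ones. Rpl22 itself had 352, 294 and 761 CPM in irradiated, 542, 561 and 354 CPM in cocultured and 417, 499 and 335 CPM in normal constructs. The Rpl22l1 part of the pair was 14.7 ± 6.93%, 12.9 ± 7.18% and 7.50 ± 5.00% in the 3 groups (SD, n = 3 each), with an exact permutation p of 0.2 for irradiated against normal (0.6 adjusted over the 24 paralog comparisons).

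Stalk proteins, which recruit the elongation factors, had no common direction. Rplp0, the base, had 327, 587 and 678 CPM in irradiated, 538, 660 and 597 CPM in cocultured and 542, 558 and 572 CPM in normal constructs. Rplp1 had 845, 567 and 896 CPM in irradiated constructs, with the cocultured and normal values given above. Rplp2 had 675, 535 and 426 CPM in irradiated, 673, 659 and 861 CPM in cocultured and 582, 762 and 650 CPM in normal constructs. Groups overlapped for all of them in every comparison except as a share of ribosomal protein counts, where Rplp1 lay lower in cocultured than in normal libraries.

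Of the Mdm2 binders, Rpl5 had 31.7, 105 and 153 CPM in irradiated, 122, 84.4 and 75.6 CPM in cocultured and 44.8, 106 and 98.8 CPM in normal constructs, and Rpl11 had 259, 498 and 439 CPM, 415, 471 and 380 CPM and 409, 527 and 316 CPM in the same groups. Both overlapped throughout, and the log2 fold changes of irradiated against normal constructs were 0.21 ± 0.56 SE for Rpl5 and -0.07 ± 0.33 SE for Rpl11. Rps6, the protein that S6 kinase phosphorylates, had 7.03, 20.9 and 46.7 CPM in irradiated, 68.5, 51.6 and 62.0 CPM in cocultured and 27.3, 34.8 and 27.1 CPM in normal constructs. The cocultured libraries lay above all 6 others (log2 1.03 ± 0.79 SE against normal, -1.29 ± 0.79 SE for irradiated against cocultured), on 33 to 639 reads a library.

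Some ribosomal proteins carry symbols outside the rule. Rack1, a signalling scaffold on the small subunit, had 431, 574 and 725 CPM in irradiated, 691, 726 and 468 CPM in cocultured and 499, 719 and 618 CPM in normal constructs. Fau, whose product is cleaved to give eS30, had 237, 190 and 267 CPM in irradiated, 262, 269 and 233 CPM in cocultured and 317, 371 and 177 CPM in normal constructs. Irradiated, cocultured and normal libraries overlapped for both. Of the 7 tested genes of this kind 0 were called and 0 had an unadjusted p under 0.05 in edgeR in any comparison, and their medians were -0.10, 0.04 and 0.01 for irradiated against normal, cocultured against normal and irradiated against cocultured constructs.

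Related gene lists, chosen with earlier results known, held few called genes, and medians below are in the order irradiated against normal, cocultured against normal and irradiated against cocultured. In that order 10.3%, 4.11% and 9.58% of all genes had an unadjusted p under 0.05, and the small counts of the lists are to be read against these shares. Of 32 initiation factors 0 were called in edgeR in any comparison, and 4 lower, 1 higher and 4 lower had an unadjusted p under 0.05, with medians of -0.18, -0.04 and -0.21. Of 17 regulators of mTORC1 and TOP messages 0 were called, and 4, 0 and 2 lower had such a p, with medians of -0.03, 0.16 and -0.57. Of 76 mitochondrial ribosomal proteins 0 were called and 1 in each comparison, lower, had such a p, with medians of 0.06, 0.00 and -0.06. Of 22 nucleolar factors 1, Rrp1b, was called, lower in irradiated constructs in both of their comparisons, 2, 0 and 2 lower had such a p, and the medians were -0.16, -0.17 and -0.08. Of 17 further TOP messages 0 were called, and 1 lower, 1 lower and, in the last comparison, 2 higher and 1 lower had such a p, with medians of -0.04, 0.16 and -0.34. Nap1l1, a histone chaperone with a TOP message, had 236, 203 and 197 CPM in irradiated, 473, 315 and 363 CPM in cocultured and 321, 421 and 376 CPM in normal constructs (log2 -0.82 ± 0.30 SE against normal, adjusted p = 0.483 in edgeR), with all irradiated libraries below all others. Eif1a, a scanning factor, had 27.0, 23.4 and 26.2 CPM in irradiated, 91.9, 92.3 and 48.7 CPM in cocultured and 74.1, 110 and 67.9 CPM in normal constructs (log2 -1.72 ± 0.52 SE against normal, adjusted p = 0.360 in edgeR). The translation repressor Eif4ebp1, which mTORC1 switches off, had 49.2, 35.7 and 38.0 CPM in irradiated, 131, 170 and 93.5 CPM in cocultured and 68.4, 172 and 41.6 CPM in normal constructs (log2 -1.68 ± 0.54 SE for irradiated against cocultured, adjusted p = 0.493 in edgeR).

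Many ribosomal protein messages end in sequence that processed pseudogenes and other copies repeat, and how reads matching several genes were counted is not given in the sources used here. In GENCODE M21 transcripts, 54 of 78 tested members with a transcript shared at least 1 of the 75-base windows of their last 400 bases with another gene, and 24 shared none. The 28 members with at least 50% of windows shared had a median level of 190 CPM, and the 50 others 329 CPM. The Spearman correlation of level and shared part was -0.12 over the 78 genes. Rpl29 shared all of its windows with transcripts of 42 other genes and had 0 to 5.89 CPM, and Rpl10a (89.9% shared) and Rps6 (87.1%) had 1.13 to 40.9 CPM and 7.03 to 68.5 CPM. Rpl36a, equally without a window of its own (100%), had 310 to 508 CPM, and Rpl15, with all windows its own (0% shared), had 2.19 to 70.5 CPM. Levels of members with shared ends are thus uncertain. Whether counting of shared reads set them was not tested. Rps3a1, outside the symbol rule, had 0 to 18.1 CPM, and its end was not searched for shared windows. Pseudogene rows marked -ps, 23 in all, held 0.00747% to 0.186% as many reads as the members.

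**Figure D5:**
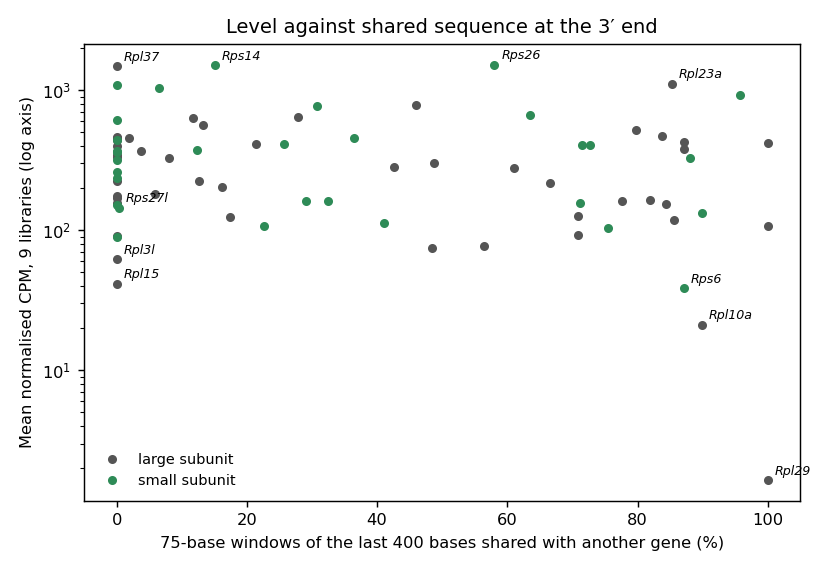
Mean normalised CPM over the 9 libraries (log axis) of 78 tested members against the percentage of 75-base windows in the last 400 bases that also occur in transcripts of another gene (grey large, green small subunit). The 3 lowest members, Rpl29, Rpl10a and Rps6, have 87.1% to 100% of their windows shared, and above them members with few and with many shared windows overlap in level.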

How the data were processed

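QuantSeq 3′ mRNA libraries, each from 100 ng of RNA, were read from a single end over 75 bases, per the labels' protocols. The submitters' processing notes name FastQC, STAR and HTSeq, and as builds GRCm39 and mm39, without versions or roles. The gene models, strand use and handling of multiple or duplicate matches were not given in the sources used here. No molecular identifiers are stated, so intervals cover counting error only, and reads of antisense or overlapping genes cannot be told apart. The authors deposited raw counts, whole numbers for each gene symbol. In all 9 files the header number exceeds the label's by 1, and each file was assigned to its sample by the record of the series. Pairs of libraries in a group had a chi-square per gene of 35.4 to 297, so none counted as a duplicate.

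Genes kept by filterByExpr were tested with edgeR 4.0.16 (R 4.3.3, TMM factors, glmQLFit and glmQLFTest with group as the term) over all 9 libraries. An adjusted p under 0.05 was called. Standard errors were approximated by dividing each log2 fold change by the root of its F. DESeq2 1.42.0 and limma 3.58.1 were alternatives. Promoters are RefSeq's (GRCm38.p6), another build than that of the counts. Named were the 5 highest members, the 3 highest and 3 lowest log2 fold changes of each comparison among members of at least 50 CPM, fixed paralogs and roles, and up to 2 genes of each related list by p. Others named were chosen after their values were seen. No p is given for sums over members. Members and lists were chosen with earlier results of these data known. Alternatives were other scalings, filters, tests, samples and a replicate block. Some genes are counted but not reported here by name.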

Additional observations from a re-analysis of the deposited data

How the results depend on the processing

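Rps27l, irradiated against normal, was the only member called in any fit, with DESeq2. Called genes for irradiated against normal constructs (7) were 130 without a filter, 24 at a mean of at least 50 CPM, 456 with DESeq2, 25 with limma voom, 23 with a replicate block, 20 without normal 3 and irradiated 1, and 0 in a fit of the 6 libraries of the comparison alone. As each library was left out they ran from 6 to 147. For cocultured against normal (0) they were 52 without a filter, 117 with DESeq2, 1 without normal 3 and irradiated 1, and 0 to 0 with a library left out. For irradiated against cocultured (4) they were 153 without a filter, 2 at 50 CPM, 9 with library totals, 524 with DESeq2, 105 with limma voom, 12 with a replicate block, 21 without normal 3 and irradiated 1, and 0 with its 6 libraries alone, and 1 to 97 with a library left out. Fewer genes or samples enter some of these fits, and the cause was otherwise not tested.

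Same-numbered libraries of different groups had correlations of deviations from -0.07 to 0.05, against -0.08 to 0.09 for differently numbered ones. Whether same-numbered libraries shared a dish or day cannot be told from these values. A replicate block called no member. Library totals moved the median of all genes to 0.14, 0.48 and -0.28 for irradiated against normal, cocultured against normal and irradiated against cocultured, and that of members to 0.44, 0.75 and -0.31. With a library left out, the members' median ran from -0.04 to 0.19 for irradiated against normal and from 0.12 to 0.43 for cocultured against normal, and from -0.30 (without irradiated 3) to -0.07 (without cocultured 2) for irradiated against cocultured (-0.17). The share difference of irradiated and normal constructs was -0.0174 on effective library sizes and 0.278 to 1.31 with a library left out, that of irradiated and cocultured constructs (-0.714) was -1.10 (without irradiated 3) to -0.148 (without irradiated 1), and the log2 subunit ratio of cocultured against normal was -0.017 without cocultured 3 (-0.017 to 0.033 over the libraries). Single members also reversed. For cocultured against normal these were Rpl3l without normal 3 (1.66; -3.75 to 1.66 over the libraries) and without normal 3 and irradiated 1 (1.65), Rpl26 without these (1.39 and 1.39; -1.58 to 1.39), with library totals (0.11) and with voom (0.22), and Rplp1 with library totals (0.20). For irradiated against normal they were Rps27a without irradiated 2 (-0.084; -0.084 to 1.17), and Rpl3l without irradiated 1 (-1.32), normal 1 (-0.52) or normal 2 (-0.49; -1.32 to 4.19 over the libraries) and on summed ribosomal protein counts (-0.056), a scale added after the data were seen. Of the remaining values for single members or counts of separated members, 444 kept direction and side of the threshold or stayed within 1.5 times, 29 moved further and 1 passed the threshold (Rps27l with DESeq2).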
